A study of Mus musculus with 6 samples.

Results

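Transcript levels of the semaphorins, plexins and neuropilins were examined in mouse bone marrow-derived macrophages (BMDMs) collected from co-culture with ID8, a line of mouse ovarian cancer cells derived from the ovarian surface epithelium. The genes were chosen by symbol and biotype, as protein-coding genes named as semaphorins of classes 3 to 7, plexins A to D, neuropilins, or the plexin domain-containing genes Plxdc1 and Plxdc2. This gave 33 of the 54532 genes listed, 22046 of which were protein-coding: 20 semaphorins, 9 plexins, 2 neuropilins and 2 plexin domain-containing genes. The rule holds no measured value, but the families were proposed with the cisplatin and PBS values of these same libraries known. The levels, differences and calls of the 33 genes are therefore a description of these libraries, and these genes and the pathway genes below are given without p-values.

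ID8 cells had been pretreated either with cisplatin at 40 µM, which crosslinks DNA, or with phosphate-buffered saline (PBS), and 3 libraries of poly-T selected RNA were sequenced for each pretreatment (hereafter the cisplatin and PBS libraries). Per the study's methods, the starting cells were marrow monocytes of C57BL/6 mice aged 6 to 8 weeks, and monocytes were collected after co-culture. The methods speak of biological replicates in general terms. How the monocytes were separated from the ID8 cells, and which libraries came from separate cultures or mice, is not given in the sources used here, so whether the spread between libraries is biological or technical is not known. RNA of both kinds of cell can be present, and in such bulk samples fewer cells of a type and less RNA per cell cannot be told apart.

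Semaphorins are guidance proteins first described in growing axons, and they also steer endothelial cells, tumour cells and leukocytes. Class 3 members are secreted and mostly bind a neuropilin that pairs with a plexin, whereas the membrane-bound members of classes 4 to 7 bind plexins directly. The cytoplasmic part of a plexin acts on small GTPases and so on adhesion and the actin cytoskeleton. In macrophages and other immune cells, this system is known for its part in migration, cell contact and costimulation.

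Levels are in FPKM (fragments scaled to the length of the gene and to a denominator near the number of reads in the library), a unit that allows genes to be compared with each other. Each cisplatin library held 15776238 to 16396353 reads, as recovered from these values, and each PBS library 15907567 to 17924686. Genes of at least 1 FPKM in at least 3 libraries were tested with limma on log2(FPKM + 1), which was the case for 13441 genes, and a gene was called if its Benjamini-Hochberg adjusted p was under 0.05 and its log2 fold change at least 1 in size. Of 10 macrophage markers, 10 were higher in the cisplatin libraries at the adjusted p alone (Mertk, tested only through its cisplatin level, had to be), and 9 of 9 tested markers of ID8 and mesothelial cells were lower, 8 of them called. Scaling the libraries to the mean log2 FPKM of 4 Y-linked genes moved the median log2 fold change of all tested genes from -0.0011 to -0.83. Quantile normalisation moved it to 0.10. The Y-linked scaling applies a single factor to each library, but on the log2(FPKM + 1) scale low genes shift less than high ones. The log2 fold change of the low Plxna2 moved from -0.76 to -1.27, and that of the abundant Plxnb2 from -1.82 to -2.80. Distances from the shifted median are therefore not fully comparable between low and high genes.

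Of the 33 genes, 26 were tested. In the cisplatin libraries 13 of these 26 fell (50% of the tested genes, beside 11.3% of all genes tested) and 1, Plxnc1, rose (3.85%, beside 4.67% of all genes tested). At the adjusted p alone, 18 were lower (69.2%, beside 35.1% of all genes) and 7 higher (26.9%, beside 32.9% of all genes), and Sema4b was neither. The groups did not overlap for 25 of the 26 genes (96.2%), beside 72.4% of all genes tested. The median log2 fold change of the 26 genes was -0.98. Of the tested genes, 8 (Sema3b, Sema3d, Sema6c, Plxna2, Plxna3, Plxna4, Plxnb1 and Plxnb3) were under 1 FPKM in every cisplatin library and so were tested only through their PBS level, which means that they had to differ. Of these 8, 6 were called lower. The other 7 genes called lower reached 1 FPKM in at least 1 cisplatin library. The families were chosen with this contrast known, and nothing is read from the shares.

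**Figure D1:**
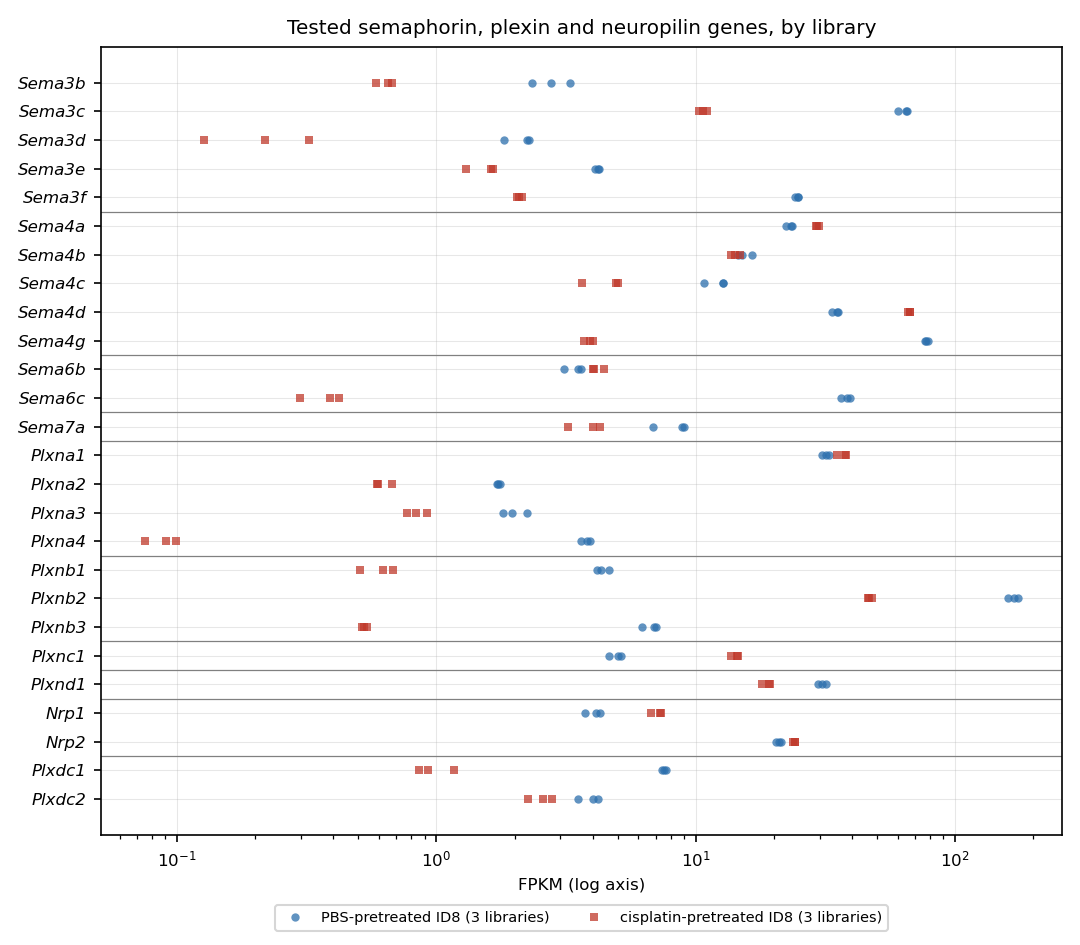
FPKM of the 26 tested genes in each of the 6 libraries (log axis; circles, PBS; squares, cisplatin), grouped by class. The widest gaps are those of Sema6c (36.4 to 39.2 FPKM in the PBS libraries and 0.297 to 0.421 in the cisplatin libraries) and Plxna4, and the points of the 2 groups overlap only for Sema4b.

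**Figure D2:**
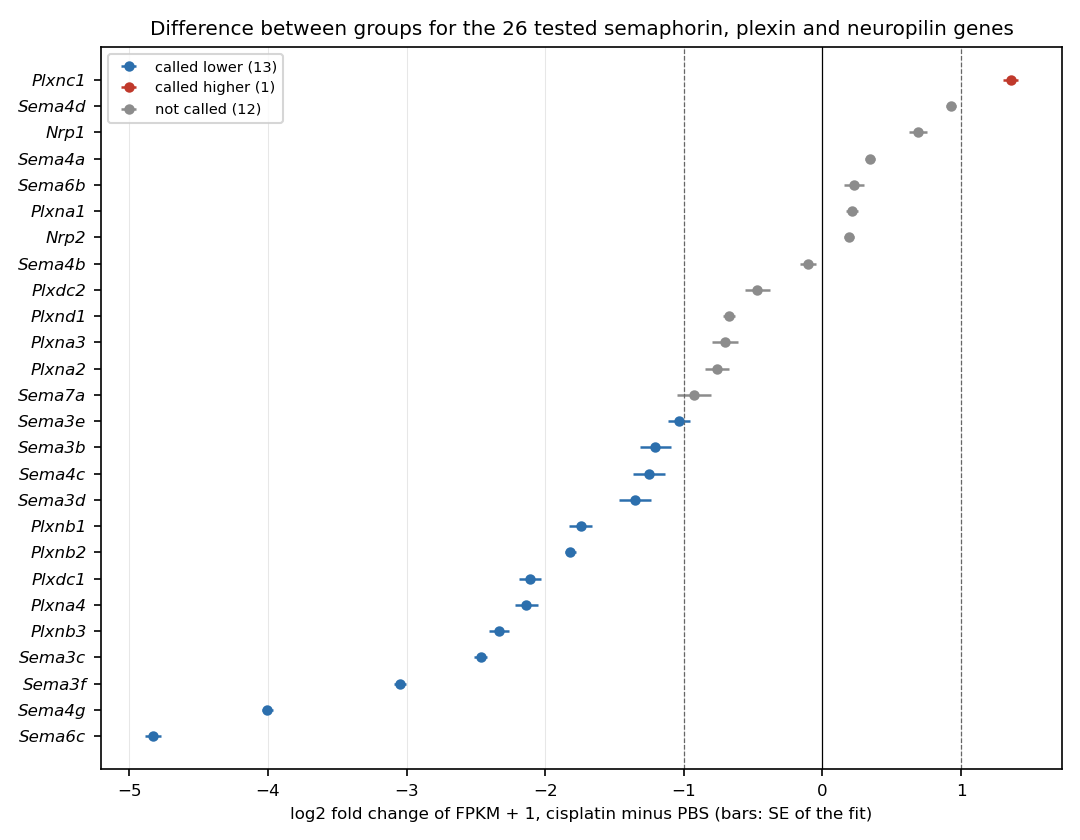
Log2 fold change of FPKM + 1, cisplatin against PBS, for the 26 tested genes, ordered by size, with the SE of the limma fit as bars and dashed lines at the fold threshold. The values run from -4.83 (Sema6c) to 1.36 (Plxnc1), with 13 genes called lower (blue), 1 called higher (red) and 12 not called (grey).

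Of the 7 secreted class 3 semaphorins, Sema3c, Sema3e and Sema3f fell, each from a level of at least 1 FPKM in every library (11.3% of all genes tested were called lower). Sema3b and Sema3d were called lower too, but they were tested only through their PBS level and so had to differ, and Sema3a and Sema3g were not tested. Sema3c, which signals through neuropilins with Plxnd1 in the developing heart and vessels, was the most abundant of them, at 60.3, 65.0 and 64.8 FPKM in PBS replicates 1 to 3 and at 11.0, 10.3 and 10.7 FPKM in cisplatin replicates 1 to 3. The fall was 5.95-fold between the group means (log2 fold change -2.46, SE 0.046). Sema3f, a ligand of Nrp2 that lies at chr9:107681500-107710475 on GRCm38 and whose human counterpart sits in a region often lost in tumours, was at 24.8, 24.2 and 24.7 FPKM with PBS and at 2.05, 2.09 and 2.14 FPKM with cisplatin. It was thus 11.7-fold lower (log2 fold change -3.05, SE 0.043), and the spread within either group was a small part of the gap. Sema3b, its neighbour on chromosome 9 at a distance of 72.3 kb, was at 2.34, 2.76 and 3.28 FPKM with PBS and at 0.677, 0.650 and 0.583 FPKM with cisplatin (log2 fold change -1.21, SE 0.11).

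Sema3d, studied mostly in heart and vein development, was at 1.83, 2.28 and 2.24 FPKM with PBS and at 0.322, 0.128 and 0.218 FPKM with cisplatin (log2 fold change -1.35, SE 0.11). Sema3e, which binds Plxnd1 without a neuropilin, was at 4.19, 4.08 and 4.22 FPKM with PBS and at 1.65, 1.63 and 1.30 FPKM with cisplatin. At a log2 fold change of -1.04 (SE 0.079) it was the called gene nearest to the threshold, and without cisplatin replicate 3 the value was -0.97 and the call was lost. Sema3a, the classical axon repellent and a ligand of Nrp1, was not tested, with 0.970 to 1.11 FPKM in the PBS libraries and 0.237 to 0.348 FPKM in the cisplatin libraries. Sema3g was at 0.133 to 0.220 FPKM with cisplatin and 0.0848 to 0.185 FPKM with PBS, and its groups overlapped. Summed over the 7 class 3 genes, the level was 98.1 ± 3.19 FPKM with PBS and 15.6 ± 0.61 FPKM with cisplatin (SD, n = 3 libraries each). Sema3d, Sema3a, Sema3e and Sema3c lie in this order on chromosome 5.

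Of the membrane-bound class 4 semaphorins, 2 of 5 tested members were called lower (11.3% of all genes) and 2 were higher at the adjusted p alone (32.9% of all genes). Sema4g, a transmembrane semaphorin for which Plxnb2 is a receptor (chr19:44989101-45003397), was the most abundant semaphorin of the PBS libraries, at 77.1, 76.8 and 78.3 FPKM, and was at 3.72, 4.01 and 3.91 FPKM in the cisplatin libraries. The fall was 19.9-fold (log2 fold change -4.01, SE 0.039). Sema4c, another ligand of Plxnb2, was at 12.8, 10.8 and 12.7 FPKM with PBS and at 3.65, 5.01 and 4.90 FPKM with cisplatin (log2 fold change -1.25, SE 0.12). Its exons overlap those of D430040D24Rik on the opposite strand, which was at 0.82 FPKM or less in every library.

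Sema4d (CD100), an immune semaphorin that binds B plexins and, on lymphocytes, Cd72, showed the opposite order. It was at 65.7, 67.0 and 67.1 FPKM in the cisplatin libraries and at 33.5, 35.0 and 35.2 FPKM in the PBS libraries, 1.93-fold apart. Its log2 fold change of 0.93 (SE 0.034) lay just under the threshold, and it became -0.050 under the Y-linked scaling, which is 0.78 above the shifted median of all genes. Beside it, 2 of 4 tested lymphocyte markers, both B cell genes (Cd79a and Ms4a1), were called higher, and the list of 6 summed to 199.9 to 210 FPKM with cisplatin and to 81.8 to 89.2 FPKM with PBS. Their part in the Sema4d level was not tested.

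Sema4a, a costimulatory semaphorin of antigen-presenting cells, was at 29.0, 29.4 and 29.8 FPKM with cisplatin and at 22.3, 23.3 and 23.4 FPKM with PBS, which is 1.28-fold higher with cisplatin, but the log2 fold change of 0.34 (SE 0.037) became -0.62 under the Y-linked scaling. Sema4b, of which little is known in macrophages, was at 13.7, 14.1 and 14.8 FPKM with cisplatin and at 15.1, 14.5 and 16.4 FPKM with PBS. It was the only tested gene of the 26 with overlapping groups (log2 fold change -0.10, SE 0.057). Sema4f was not tested, at 0.16 FPKM or less in every library. The 6 class 4 genes summed to 119 ± 2.51 FPKM with cisplatin and 162 ± 3.19 FPKM with PBS (SD, n = 3 each).

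Among the class 6 semaphorins, transmembrane ligands of the A plexins, Sema6c had the lowest log2 fold change of the 26 tested genes, though it too was tested only through its PBS level and had to differ. It lies at chr3:95160457-95174024 and was at 39.2, 36.4 and 38.2 FPKM in the PBS libraries and at 0.297, 0.421 and 0.388 FPKM in the cisplatin libraries. This corresponds to 4116, 3366 and 3515 reads with PBS against 30, 41 and 38 with cisplatin. The means differed 103-fold. The difference in log2(FPKM + 1), in which changes of low values look smaller, was -4.83 (SE 0.058). The 250 bases before the RefSeq start of Sema6c (GRCm38.p6, plus strand, chr3:95160170-95160419) are shown because of this difference, with the GC box (GGGCGG, the core of the Sp1 site) in capitals:
Sema6c: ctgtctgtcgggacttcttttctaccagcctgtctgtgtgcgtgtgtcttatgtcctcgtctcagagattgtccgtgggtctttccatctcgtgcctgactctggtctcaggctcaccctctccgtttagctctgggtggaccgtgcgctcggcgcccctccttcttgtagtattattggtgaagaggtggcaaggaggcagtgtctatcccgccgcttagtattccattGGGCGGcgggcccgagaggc
This stretch holds 1 GC box, read on both strands, and 15 CpG dinucleotides at 57.6% GC. Of the 33 genes, 26 had a RefSeq window, and 21 of these 26 (80.8%) held the GC box in the 250 bases before a start, beside 35.4% of 27025 genes. A gene counted if any of its windows matched (37 windows for the 26 genes), and the 27025 genes were not filtered by biotype. The GC box was found in 7 of the 9 genes called lower that had a window and in 14 of the 17 others.

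Sema6b was at 4.0 to 4.42 FPKM with cisplatin and at 3.09 to 3.61 FPKM with PBS, 1.22-fold higher with cisplatin, with a log2 fold change of 0.23 (SE 0.072) that became -0.56 under the Y-linked scaling. Sema6d, a ligand of Plxna1, was not tested, at 0.590 to 0.744 FPKM with cisplatin and 0.727 to 0.924 FPKM with PBS, and the groups overlapped. Sema6a was detected with 11 to 13 reads per cisplatin library and 1 to 4 reads per PBS library. Of the class 5 semaphorins, which carry thrombospondin repeats, Sema5a was at 0.299 to 0.456 FPKM with PBS and 0.0157 to 0.0454 FPKM with cisplatin, and Sema5b had 0 to 2 reads in the cisplatin libraries and 0 in each PBS library. Neither was tested, and the 7 untested genes all stayed at 1.11 FPKM or less in every library. Sema7a, a lipid-anchored semaphorin that binds Plxnc1 and integrins, was at 6.85 to 8.98 FPKM with PBS and at 3.23 to 4.28 FPKM with cisplatin. Its log2 fold change of -0.93 (SE 0.12) lay just short of the threshold, and it was called without PBS replicate 2, at -1.04.

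On the receptor side, the 3 B plexins were called lower (11.3% of all genes tested were), of which Plxnb1 and Plxnb3 were tested only through their PBS level and so had to differ. Plxnb2, a receptor of class 4 semaphorins (chr15:89155549-89180788), had the highest level of all 33 genes in the PBS libraries, at 160, 169 and 175 FPKM, and was at 46.1, 46.7 and 47.9 FPKM in the cisplatin libraries. The fall was 3.58-fold (log2 fold change -1.82, SE 0.042), and even so Plxnb2 remained the most abundant plexin with cisplatin. The 250 bases before its RefSeq start (GRCm38.p6, minus strand, chr15:89180789-89181038) are shown as those of the leading plexin, with GC boxes on either strand in capitals:
Plxnb2: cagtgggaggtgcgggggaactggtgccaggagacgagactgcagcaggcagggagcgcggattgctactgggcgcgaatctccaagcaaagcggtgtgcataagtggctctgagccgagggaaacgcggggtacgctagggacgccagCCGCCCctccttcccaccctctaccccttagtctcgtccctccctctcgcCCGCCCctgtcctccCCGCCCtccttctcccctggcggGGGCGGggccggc
They hold 4 GC boxes and 20 CpG dinucleotides at 69.2% GC, against the single GC box of the Sema6c stretch above. Plxnb1, the high-affinity receptor of Sema4d, was at 4.16, 4.30 and 4.64 FPKM with PBS and at 0.509, 0.622 and 0.682 FPKM with cisplatin, 7.23-fold lower (log2 fold change -1.74, SE 0.082). Plxnb3, a receptor of Sema5a, was at 6.20, 6.89 and 7.01 FPKM with PBS and at 0.516, 0.525 and 0.541 FPKM with cisplatin, 12.7-fold lower (log2 fold change -2.33, SE 0.072). The summed level of the B plexins was 179 ± 8.23 FPKM with PBS and 48.0 ± 0.995 FPKM with cisplatin (SD, n = 3 each).

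Plxnc1, the receptor of Sema7a, was the one gene of the 33 that rose by both thresholds. It was at 14.6, 13.6 and 14.4 FPKM in the cisplatin libraries and at 5.14, 5.01 and 4.63 FPKM in the PBS libraries, 2.88-fold higher (log2 fold change 1.36, SE 0.054). Under the Y-linked scaling the value was 0.47 and no longer called, which is 1.31 above the shifted median. The Plxnc1 window holds GAAANNGAA, the core of the interferon response element (N, any base), as do those of Plxnd1, Sema3d and Sema6b, 4 of 26 genes (15.4%) beside 8.18% of 27025 genes. The match lies 118 bases before the RefSeq start and is shown in capitals within 30 bases at chr10:94944944-94944973 (GRCm38.p6, minus strand):
Plxnc1: ttcacaatggGAAAGTGAAacgcacaagcg
It describes the letters of the window only. Of the genes with this match, Sema3d fell, and Plxnd1 and Sema6b were not called. The other motifs searched, on both strands of the same windows, were TGANTCA (AP-1), found in 3 of 26, GGAATG (TEAD), found in 3, and CACGTG (E-box), found in 2, beside 7.82%, 14.4% and 6.86% of 27025 genes.

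The A plexins, partners of neuropilins and receptors of class 6 semaphorins, diverged. Plxna1 was at 35.0, 38.0 and 37.5 FPKM with cisplatin and at 30.6, 31.8 and 32.6 FPKM with PBS, 1.16-fold higher with cisplatin, and the log2 fold change of 0.21 (SE 0.046) became -0.76 under the Y-linked scaling. Plxna4, a partner of Nrp1 in the response to Sema3a, was at 3.61, 3.82 and 3.91 FPKM with PBS and at 0.0750, 0.0907 and 0.0988 FPKM with cisplatin (900, 839 and 856 reads against 18, 21 and 23). It fell 42.9-fold between the means (log2 fold change -2.13, SE 0.082), and like Sema6c it passed the filter only through PBS and had to differ. Plxna2 was at 1.71, 1.76 and 1.73 FPKM with PBS and at 0.596, 0.589 and 0.673 FPKM with cisplatin (log2 fold change -0.76, SE 0.085). For Plxna3, on the X chromosome 557 kb from Plxnb3, the values were 2.24, 1.96 and 1.80 FPKM with PBS and 0.836, 0.920 and 0.768 FPKM with cisplatin (log2 fold change -0.70, SE 0.094). Neither was called, and that their groups did not overlap follows from the filter, which both passed only through PBS. The summed A plexin level, most of it from Plxna1, was similar in size in the groups, 38.4 ± 1.66 FPKM with cisplatin and 39.2 ± 0.96 FPKM with PBS (SD, n = 3 each). In this sum the higher Plxna1 level with cisplatin stood against lower levels of Plxna2, Plxna3 and Plxna4.

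Plxnd1, the receptor of Sema3e, was at 29.6, 31.7 and 30.6 FPKM with PBS and at 17.9, 19.2 and 19.4 FPKM with cisplatin (log2 fold change -0.67, SE 0.046), and it was not called. Both neuropilins, which serve class 3 semaphorins and vascular endothelial growth factors (VEGFs) alike, were higher in the cisplatin libraries in FPKM and lower under the Y-linked scaling. Nrp1 was at 7.36, 7.28 and 6.70 FPKM with cisplatin and at 4.28, 4.11 and 3.74 FPKM with PBS (log2 fold change 0.69, SE 0.065, and -0.15 under that scaling). For Nrp2, 23.7, 24.2 and 24.1 FPKM with cisplatin stood against 20.4, 21.3 and 20.9 FPKM with PBS (log2 fold change 0.19, SE 0.036, and -0.76 under that scaling). Neither was called. Plxdc1, named as a marker of tumour endothelium and no true plexin, fell from 7.51, 7.39 and 7.69 FPKM with PBS to 0.924, 0.856 and 1.16 FPKM with cisplatin (log2 fold change -2.11, SE 0.077). Of 6 endothelial markers listed, Cldn5 was at 0 in every library, and of the 3 tested 2 were higher and 1 lower at the adjusted p alone, all short of the fold threshold. The list summed to 18.0 to 19.2 FPKM with cisplatin and 12.9 to 13.6 FPKM with PBS. Plxdc2 was at 2.25 to 2.79 FPKM with cisplatin and 3.51 to 4.19 FPKM with PBS (log2 fold change -0.47, SE 0.088).

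The makeup of each family changed with its level, and shares within a library do not depend on a scaling that applies the same factor to every gene of a library. The 20 semaphorins summed to 311 ± 6.06 FPKM with PBS and 143 ± 2.70 FPKM with cisplatin, and the 9 plexins to 254 ± 9.55 and 119 ± 2.96 FPKM (SD, n = 3 each). In the PBS libraries Sema4g held 24.9 ± 0.25% of the semaphorin sum, Sema3c 20.3 ± 0.76%, Sema6c 12.2 ± 0.49% and Sema4d 11.1 ± 0.24%. In the cisplatin libraries Sema4d held 46.4 ± 0.34%, Sema4a 20.5 ± 0.16% and Sema4b 9.90 ± 0.25%, while Sema4g had gone from rank 1 to rank 7 and Sema6c from rank 3 to rank 13. Plxnb2, Plxna1 and Plxnd1 were the 3 leading plexins, in this order, in both groups. Plxnb2 held 66.2 ± 0.58% of the plexin sum with PBS and 39.3 ± 0.45% with cisplatin, and Plxna1 12.5 ± 0.085% and 30.8 ± 0.74%. The share of Plxnc1 was 1.95 ± 0.17% with PBS and 11.9 ± 0.62% with cisplatin.

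**Figure D3:**
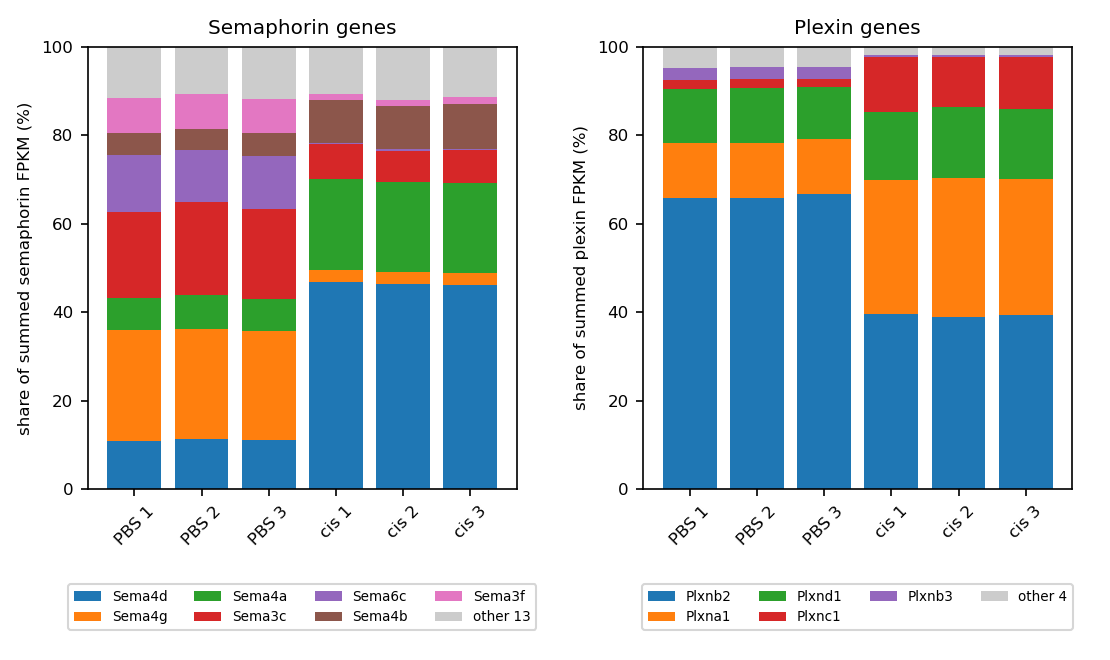
Share of each gene in the summed FPKM of the 20 semaphorins (left) and the 9 plexins (right) in each library, in percent; cis stands for the cisplatin libraries, and genes not named are pooled in grey. Sema4d takes 46.1% to 46.8% of the semaphorin sum in each cisplatin library and 10.9% to 11.4% in each PBS library, where Sema4g, Sema3c and Sema6c are wide bands.

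Ratios of a ligand to a receptor, in FPKM within a library, were formed for known pairs, and like the shares they do not depend on such a factor. The Sema4d to Plxnb2 ratio was 0.206 ± 0.0043 with PBS and 1.42 ± 0.017 with cisplatin (SD, n = 3 each), so that the ligand was below its receptor in one group and above it in the other. For the same receptor, Sema4g to Plxnb2 went the other way, at 0.461 ± 0.018 with PBS and 0.0827 ± 0.0028 with cisplatin. The ligands of Plxnd1 diverged likewise, Sema4a to Plxnd1 being at 0.751 ± 0.016 and 1.56 ± 0.049 and Sema3e to Plxnd1 at 0.136 ± 0.0067 and 0.0812 ± 0.013. The ratio was also lower with cisplatin for Sema3c to Nrp2, at 3.03 ± 0.068 with PBS and 0.444 ± 0.021 with cisplatin, and for Sema3f to Nrp2, at 1.18 ± 0.040 and 0.0872 ± 0.0015. Sema7a to its receptor Plxnc1 was 1.67 ± 0.28 with PBS and 0.271 ± 0.043 with cisplatin. By contrast, Sema4c to Plxnb2 was 0.0721 ± 0.0079 and 0.0963 ± 0.015, and the groups overlapped, at 0.0640 to 0.0798 with PBS and 0.0791 to 0.107 with cisplatin. The ratios compare transcripts of all cells in a library and do not say which cells carried them.

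Further genes of the pathway were taken from lists of other surface partners, VEGF ligands and intracellular effectors, 62 genes of which 51 were tested. Of these 51, 4 were called higher (7.84%, beside 4.67% of all genes tested) and 16 lower (31.4%, beside 11.3% of all genes), 4 of the 51 being tested only through the level of 1 group, and the median log2 fold change was -0.51. Among the surface partners, 3 of 11 tested genes rose and 5 fell. Trem2 and its adaptor Tyrobp (DAP12), which associate with Plxna1 in myeloid cells, were among the genes called higher. Trem2, which was tested only through its cisplatin level and so had to differ, was at 1.56, 1.49 and 1.76 FPKM with cisplatin and at 0.206, 0.273 and 0.196 FPKM with PBS (log2 fold change 1.09, SE 0.10). For Tyrobp the levels were 258, 271 and 287 FPKM with cisplatin and 120, 124 and 132 FPKM with PBS (log2 fold change 1.11, SE 0.054). Cd72, the lymphocyte receptor of Sema4d and itself a B cell gene, rose from 18.7 ± 0.75 to 43.1 ± 1.33 FPKM (SD, n = 3 each) alongside the B cell markers named above. Under the Y-linked scaling the values of these 3 genes were 0.70, 0.12 and 0.20, and none of the 3 was called.

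Of the receptor kinases that pair with B plexins, 3 were tested. Met was at 21.0 ± 0.51 FPKM with cisplatin and 18.5 ± 0.84 FPKM with PBS, and its log2 fold change of 0.17 (SE 0.045, not called) became -0.78 under the Y-linked scaling. Mst1r (Ron) fell from 11.2 ± 0.18 to 1.57 ± 0.21 FPKM (log2 fold change -2.25, SE 0.073). Erbb2, tested only through its PBS level, was at 5.21 ± 0.39 FPKM with PBS and 0.686 ± 0.25 FPKM with cisplatin. Flt4, a VEGF receptor that pairs with Nrp2, fell from 9.53 ± 0.63 to 1.60 ± 0.12 FPKM. Of the VEGF ligands, 3 of 3 tested were lower at the adjusted p alone (35.1% of all genes) and 1 was called lower (11.3% of all genes). This was Vegfa, a ligand of Nrp1, at 108, 98.2 and 110 FPKM with PBS and at 16.8, 15.4 and 15.7 FPKM with cisplatin (log2 fold change -2.65, SE 0.056). Of 37 tested intracellular effectors, 10 fell (11.3% of all genes did) and 1 rose (4.67% of all genes did), and their median log2 fold change was -0.45. The rise was that of Fes, a tyrosine kinase that acts below Plxna1, from 9.79 ± 1.03 to 30.1 ± 2.89 FPKM. Among the falls, Farp1, an exchange factor bound to A plexins, went from 13.5 ± 0.39 to 2.26 ± 0.25 FPKM, and Mical2, of the actin-oxidising MICAL enzymes, from 10.9 ± 0.52 to 2.16 ± 0.14 FPKM. Each ± in this comparison of partners is an SD over 3 libraries.

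**Figure D4:**
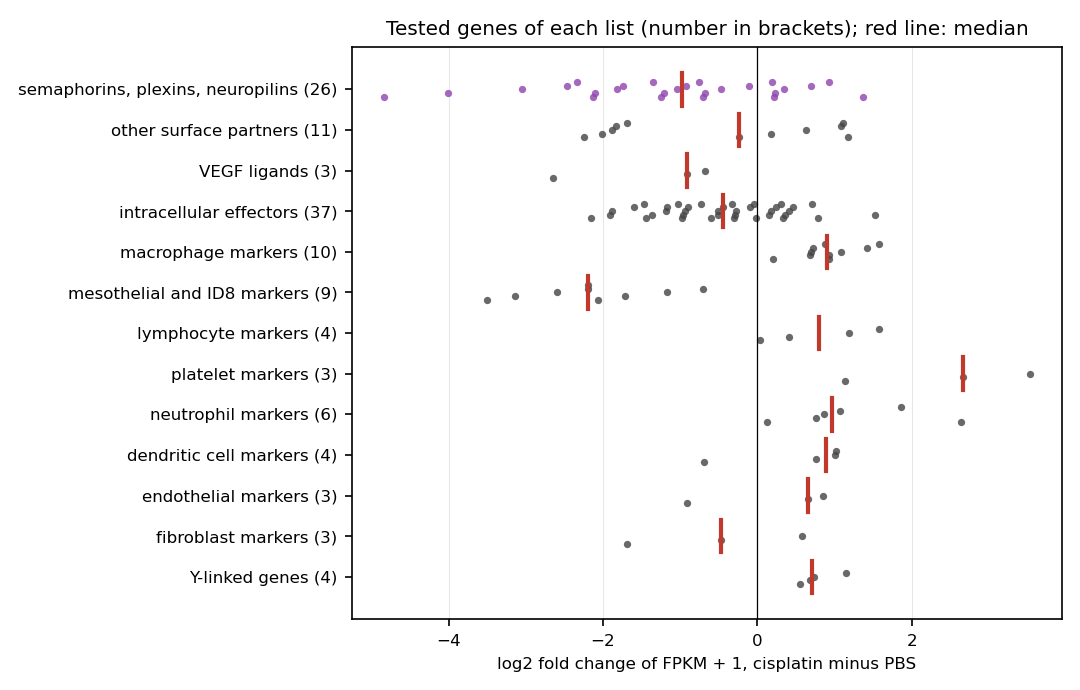
Log2 fold change of FPKM + 1, cisplatin against PBS, of the tested genes of the families (purple), the pathway lists and the cell type marker lists, with the number tested in brackets and the median as a red line. The family median is -0.98, beside 0.90 for the macrophage markers and -2.19 for the mesothelial and ID8 markers.

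Markers of the cells in the co-culture moved with these differences. The 14 ID8 and mesothelial markers summed to 1307 to 1411 FPKM with PBS and 242 to 262 FPKM with cisplatin. The 9 tested markers were 1.64-fold to 11.5-fold lower between the means, Krt19 (keratin 19) the most, and 5 markers were under 1 FPKM in every library. Of the 13 family genes called lower, 8 had a ratio within this range, whereas Sema3f, Plxnb3, Sema4g, Plxna4 and Sema6c (11.7-fold to 103-fold) lay beyond it, Sema3f by little. Of these 5, Plxnb3, Plxna4 and Sema6c passed the filter only through PBS. The 5 untested markers had PBS to cisplatin ratios from 0.36 (Igfbp5) to 36.2 (Muc16, on 0 to 2 reads per cisplatin library). Of the 10 macrophage markers, Mertk was 5.90-fold higher with cisplatin, having passed the filter only through that group, and the other 9 were 1.15-fold to 2.98-fold higher (Adgre1, the F4/80 antigen, 190 ± 3.52 against 103 ± 1.06 FPKM). The list summed to 4326 to 4489 against 1716 to 1727 FPKM. Under the Y-linked scaling, which shifts all genes, 7 of the 10 had a negative log2 fold change, and their median of -0.090 lay 0.74 above the shifted median of all genes. In FPKM, the 7 family genes higher at the adjusted p alone were 1.15-fold to 2.88-fold higher, and while 6 of the 7 had a negative value under that scaling, 7 of 7 lay above the shifted median. Xist, transcribed from an inactive X chromosome, was at 7.79 ± 0.19 FPKM with cisplatin and 42.7 ± 5.35 FPKM with PBS, and Ddx3y, on the Y chromosome, at 19.2 ± 0.66 and 8.10 ± 0.52 FPKM (SD, n = 3 each). The part of the cell mixture in the family differences was not tested.

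Other marker lists also moved. Platelet markers were called higher in 3 of 3 tested genes (254 to 279 FPKM in sum with cisplatin, 26.9 to 31.6 with PBS), with Gp1bb at 0 in every library. Neutrophil markers were called higher in 3 of 6 (8020 to 8294 against 4567 to 4710 FPKM in sum). Most of this sum came from S100a8 and S100a9, which were higher at the adjusted p alone and not called. Dendritic cell markers were called higher in 2 of 4 (34.2 to 36.5 against 17.1 to 18.4 FPKM), while Zbtb46 was lower at the adjusted p alone (0.609 against 1.60 FPKM). Of these, Flt3, called higher, and Zbtb46 were each tested only through the group where they were high and had to differ. Of 3 tested fibroblast markers 1, Dcn, was called lower and made up most of the sum (21.7 to 24.3 against 58.6 to 62.5 FPKM), while Thy1 was higher at the adjusted p alone (3.86 against 2.25 FPKM). Several semaphorins and plexins, Sema4d, Sema4a and Plxnc1 among them, are expressed by more than one of these cell types, and the part of any of them was not tested. Exons of another annotated gene overlapped those of 7 of the 33 genes, and the overlapping genes were at 0.82 FPKM or less in every library.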

How the data were processed

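The data are 6 RNA-seq libraries of BMDMs collected after co-culture, 3 per pretreatment. The FPKM values of 54532 genes were deposited by the authors in a single table. Their methods state read cleaning, alignment and counting with LifeScope and testing with DESeq2, whereas the submitters' processing notes name fastp, HISAT2 2.0.5, featureCounts 1.5.0-p3 and mm10. Whether counting used strand is not given in the sources used here. Coordinates are those of the table and matched GENCODE M21 (GRCm38) for 33 of 33 family genes.

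FPKM times gene length fell on a grid set by the worth of 1 read, from which reads per library were recovered: 100% of values under 200 reads came out whole within 0.05. The denominator behind the values was 103.7% to 104.1% of the recovered reads with cisplatin and 97.4% to 98.7% with PBS, and the source of this difference is not given in the sources used here. At 1 kb, 1 read gave 0.0565 to 0.0645 FPKM, so short genes under 1 FPKM rest on few reads. Longer genes hold more reads at the same level. Plxna2, of 17174 bases, was under 1 FPKM in the cisplatin libraries with 166 to 191 reads in each. Because FPKM are not counts, log2(FPKM + 1) of genes with at least 1 FPKM in at least 3 libraries was fitted with limma 3.58.1 in R 4.3.3 (lmFit, eBayes with a trend), with pretreatment as the only term. P-values are two-sided, with Benjamini-Hochberg adjustment over 13441 genes. They set the group difference against the spread between these libraries, which may be biological or technical. Fold changes on this scale understate the change of low genes. The procedure was tested on simulated data.

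The family genes, the pathway and marker lists and the rule for naming genes were chosen with earlier results of these data known. Named with the value in every library, or by their range, were family genes called in the fit, every tested plexin and neuropilin, and tested genes of at least 10 FPKM in a group. From the pathway lists came Trem2, Tyrobp, Met and Vegfa, and per list the 2 called genes with the largest rise and the 2 with the largest fall. Krt19, Adgre1, Ddx3y and Xist were named with the markers. Dcn, Thy1, Mertk, Flt3, Zbtb46, Muc16, Igfbp5, Erbb2, S100a8, S100a9 and the B cell genes were named after their values were seen. A listed lymphocyte marker is not reported here and is left out of that list's counts and sums. RefSeq promoter windows (GRCm38.p6) were searched for motifs on both strands. The alternatives were other pseudocounts, filters, scalings and thresholds, limma voom on the recovered reads, a replicate block, and leaving out each library.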

Additional observations from a re-analysis of the deposited data

How the results depend on the processing

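The family counts (1 gene called higher, 13 lower) and pathway counts (4 higher, 16 lower) were recomputed under each alternative. With scaling to Y-linked genes, limma called 0 family and 0 pathway genes higher (1 and 3 were higher at an unadjusted p under 0.05 without the fold threshold, and Plxnc1, Trem2, Fes and Cd72 fell short of that threshold alone; limma voom without that scaling called 1 and 4), and 19 family and 33 pathway genes lower. Under it the log2 fold change turned negative for Nrp1 (-0.15), Nrp2 (-0.76), Plxna1 (-0.76), Sema4a (-0.62), Sema4d (-0.050), Sema6b (-0.56) and Met (-0.78), while the median of all genes was -0.83 by construction of the scaling. The filter at 5 FPKM tested fewer genes and left 8 family and 12 pathway genes called lower. The adjusted p alone gave 7 family genes higher and 18 lower, and 15 pathway genes higher and 32 lower. A pseudocount of 0.1, TPM and limma voom each called 16 family genes lower, adding Plxna2, Plxna3 and Sema7a, and 22, 21 and 22 pathway genes lower; quantile normalisation called 12, without Sema3e (-0.90).

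Leaving out each library in turn gave 1 family gene higher throughout and 12 to 14 lower (Sema3e lost without cisplatin replicate 3, Sema7a gained without PBS replicate 2), and 4 pathway genes higher and 15 to 17 lower. Same-numbered libraries did not deviate together (correlations -0.10, -0.086 and -0.024), so the numbers were not taken to pair them. A fit with a replicate block gave counts of 1 and 13 for the family and 4 and 16 for the pathway. Over all genes, 628 were called higher and 1514 lower, 1002 and 2026 with limma voom, 973 and 1981 with the pseudocount of 0.1, 443 and 1061 with the filter at 5 FPKM, and 85 and 5181 under the Y-linked scaling. Depth limits the genes with few reads, such as Sema5b, with 0 to 2 reads per library.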
